A study of Mus musculus with 8 samples.

Results

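miR-375, miR-7, miR-153 and miR-184 are miRNAs studied in the hormone-producing cells of the pancreatic islets, and also known from other cell types. Their levels were read here in stromal cells of pancreas and fat. The members were chosen by name: 9 mature arms, namely mmu-miR-375-3p, mmu-miR-375-5p, mmu-miR-7a-5p, mmu-miR-7a-1-3p, mmu-miR-7a-2-3p, mmu-miR-7b-5p, mmu-miR-7b-3p, mmu-miR-153-3p and mmu-miR-184-3p, written below without the species prefix. Of these, 8 were listed among the 1624 mature names of the deposited table and 7 had at least 1 read. miR-375-5p was not among the names, and miR-7b-3p was listed with 0 reads in all 8 libraries, which over the 36909250 mature reads of the pMSCs allows at most 0.0813 reads per 1000000 mature reads (CPM) and over the 33979750 of the iwatMSCs at most 0.0883 (3 reads per group, counting error only).

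Small RNA was sequenced from mesenchymal stromal cells (MSCs) of the pancreas (pMSCs, libraries 5 to 8) and of the inguinal white adipose tissue (iwatMSCs, libraries 13 to 16), with 4 libraries each. All cells came from untreated male C57BL/6J mice of 8 weeks on a standard diet, and both tissues were taken from the same animals. Cells were sorted as CD45-:CD31-:SCA1+, pooled from 3 to 5 mice and expanded in culture for 4 days. The gate removed blood and endothelial cells, and no epithelial or endocrine marker was part of it. As each library is a bulk pool, a change in the number of cells of a type and a change in RNA per cell cannot be told apart, and the labels do not say which pools shared animals, so p-values measure the spread between these libraries.

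The libraries held 7789990 to 10538022 mature miRNA reads, 35.77% to 41.04% of all small RNA reads. pMSCs library 7 was not short of reads, with 9236362 mature reads and the highest mature share, 41.04%. However, the value that the authors call TPM was 1 for 1022 of its 1057 mature names with reads, against 122 to 176 names in the other libraries. The reads were therefore used, and the mature reads of each tested member were fitted with all 8 libraries and without library 7. Fits of hairpin-type reads, and counts over lists unless said otherwise, are given with all 8 libraries only. miRNAs of mesenchymal cells (miR-199a, miR-199b, miR-214, miR-143, miR-145a and miR-21a, 10 arms) were abundant in both tissues, with summed levels of 103268 to 118621 CPM in pMSCs and 83040 to 116977 CPM in iwatMSCs. Single arms of this list differed between the tissues: 3 of 10 were called higher in pMSCs and 0 lower by edgeR (4 lower at an unadjusted p under 0.05), and 3 higher and 3 lower by DESeq2. Over all 1241 tested mature miRNAs, edgeR called 3.46% higher and 2.98% lower (at an unadjusted p under 0.05, 122 and 105 miRNAs). DESeq2 called 5.96% higher and 4.67% lower. miR-143-3p averaged 51301 CPM in pMSCs and 16080 CPM in iwatMSCs (edgeR adjusted p = 0.000226). miR-199a-3p averaged 51.9 and 4906 CPM, or -6.56 on the log2 scale, but was not called (edgeR adjusted p = 0.0655). The 5p arms did not show a difference of this size. miR-199a-5p differed by -0.52 and miR-199b-5p by -0.32 on the log2 scale (edgeR adjusted p = 0.171 and 0.358). How reads were given to the name miR-199a-3p was not tested.

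A miRNA guides a silencing complex to mRNAs that pair with its seed, the bases 2 to 8 of the mature strand, and both strands of a hairpin (the 5p and 3p arms) can be loaded. In beta cells of the mouse, miR-375 restrains insulin release and maintains beta cell mass, and it is also made in other epithelia. miR-7 is abundant in islet endocrine cells and in neurons and dampens growth and secretion there, miR-153 comes from a gene for a protein of secretory granules, and miR-184 is known from beta cells, where it restrains the Argonaute protein Ago2, as well as from the eye and neurons.

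The mature sequences show which of these names can be told apart by their reads and which share targets. They are the RefSeq entries for GRCm38.p6, written 5′ to 3′ with the seed in capitals. RefSeq entries were matched by name, since the sources used here do not give the build behind the small RNA reads.
miR-7a-5p: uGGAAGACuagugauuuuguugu
miR-7b-5p: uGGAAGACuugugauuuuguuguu
miR-7a-1-3p: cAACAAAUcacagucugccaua
miR-7a-2-3p: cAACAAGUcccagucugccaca
miR-7b-3p: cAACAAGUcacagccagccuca
miR-153-3p: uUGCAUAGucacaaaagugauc
miR-184-3p: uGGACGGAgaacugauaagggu

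miR-7a-5p and miR-7b-5p share the seed GGAAGAC, and no other name in the table with a RefSeq sequence carries it (1167 of the 1383 known names have a sequence). Within their shared length they differ only by A10U (the miR-7a-5p base first, counted from 1 at the 5′ end), so reads with an error at this base could be given to the wrong name. miR-7a-5p is made from 2 hairpins, and its 5p reads do not tell them apart. The 3p arms do, since miR-7a-1-3p and miR-7a-2-3p differ by A7G, A10C and U21C, of which the first lies in the seed. The seeds of miR-153-3p and miR-184-3p were each carried by no other name with a sequence.

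The 6 hairpins lie on 6 chromosomes, so none of them are neighbours. In GENCODE M21 (GRCm38), the hairpin of miR-7a-1 is at chr13:58392779-58392886 (minus strand) in an intron of Hnrnpk, a widely expressed RNA-binding protein gene, and that of miR-153 at chr12:117250817-117250885 (plus strand) in an intron of Ptprn2, a gene for a granule protein of neuroendocrine cells. The others are intergenic. miR-375 is at chr1:74900658-74900721 (minus strand), 1350 bp from Cfap65, and miR-7a-2 at chr7:78888277-78888373 (plus strand), 7481 bp from Aen. miR-7b is at chr17:56242988-56243098 (plus strand), 13712 bp from Fem1a, and miR-184 at chr9:89802260-89802328 (minus strand), 63785 bp from Ankrd34c.

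The design compares the stroma of the 2 tissues. miR-375-3p and miR-7b-5p were higher and miR-184-3p was lower in pMSCs than in iwatMSCs, while miR-7a-5p, miR-7a-1-3p, miR-7a-2-3p and miR-153-3p did not pass the test with all 8 libraries. Thus 2 of 7 tested members were called higher and 1 lower at an adjusted p under 0.05 (edgeR), beside 3.46% of all 1241 tested mature miRNAs called higher, 2.98% called lower and 6.45% called either way. For 3 members no pMSCs library overlapped with any iwatMSCs library, which held for 13.7% of all tested miRNAs (6.93% with all pMSCs libraries above and 6.77% with all below). Without library 7, miR-153-3p passed as well, so that 3 members were higher and 1 lower, beside 2.65% and 2.73% of 1244 tested (5.39% either way).

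**Figure D1:**
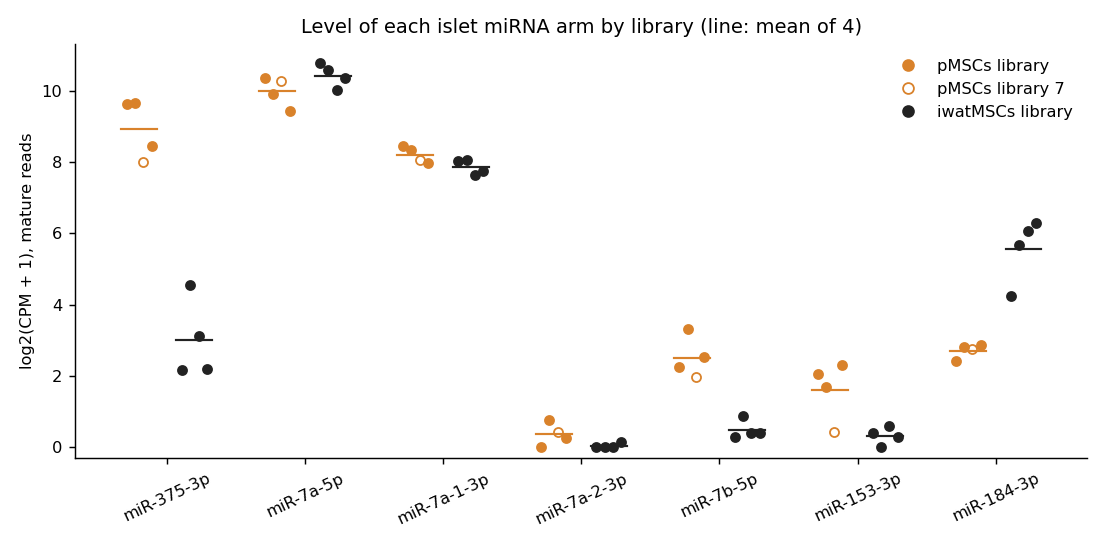
Level of the 7 detected arms in each library as log2(CPM + 1) of mature reads, with a line at the mean of 4 libraries and pMSCs library 7 as an open circle. miR-375-3p and miR-7b-5p lie higher in all pMSCs libraries, miR-184-3p lies higher in all iwatMSCs libraries, and the other 4 arms overlap.

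miR-375-3p was the member with the greatest difference. Libraries 5, 6, 7 and 8 of the pMSCs held 5484, 7942, 2247 and 3380 of its reads, or 789.7, 807, 254 and 350 CPM, and libraries 13 to 16 of the iwatMSCs held 32, 183, 73 and 33 reads, or 3.53, 22.5, 7.75 and 3.63 CPM. The groups stood far apart, but neither was even: libraries 5 and 6 were above libraries 7 and 8, and iwatMSCs library 14 was above the other iwatMSCs libraries. The highest library exceeded the lowest by 3.18-fold in pMSCs and by 6.37-fold in iwatMSCs. Mean levels were 550 ± 289 CPM (SD, n = 4) in pMSCs and 9.35 ± 8.99 CPM (SD, n = 4) in iwatMSCs. The difference was 5.88 on the log2 scale with a standard error of 0.77, or 58.9-fold, at an edgeR adjusted p of 0.00152.

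Without library 7 the log2 fold change of miR-375-3p was 6.05 (adjusted p = 0.00257 from edgeR), and without iwatMSCs library 14 it was 6.79. By mean level, miR-375-3p ranked 83rd of the 1624 mature names in pMSCs and 385th in iwatMSCs.

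The table also lists reads of type hairpin under the same arm names, counted apart from the mature reads. How a read was given to 1 type or the other is not given in the sources used here. For miR-375-3p the hairpin-type reads numbered 1788, 2657, 845 and 1172 in pMSCs and 13, 59, 21 and 13 in iwatMSCs. In number they followed the same order of libraries as the mature reads within the pMSCs, and again library 14 was highest in iwatMSCs. As CPM, library 6 was highest in mature reads (807, against 789.7 in library 5) and library 5 in hairpin-type reads (246, against 232 in library 6). The log2 difference of these reads was 5.95 with a standard error of 0.62 (edgeR adjusted p = 7.11e-05 over 1072 hairpin-type rows, of which 4.57% were called higher, 3.17% lower and 7.74% either way). Hairpin-type reads made up 25.7% ± 1.2 (SD, n = 4) of all miR-375-3p reads in pMSCs and 25.97% ± 3.13 (SD, n = 4) in iwatMSCs, so the division into types was alike where the level was not.

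**Figure D2:**
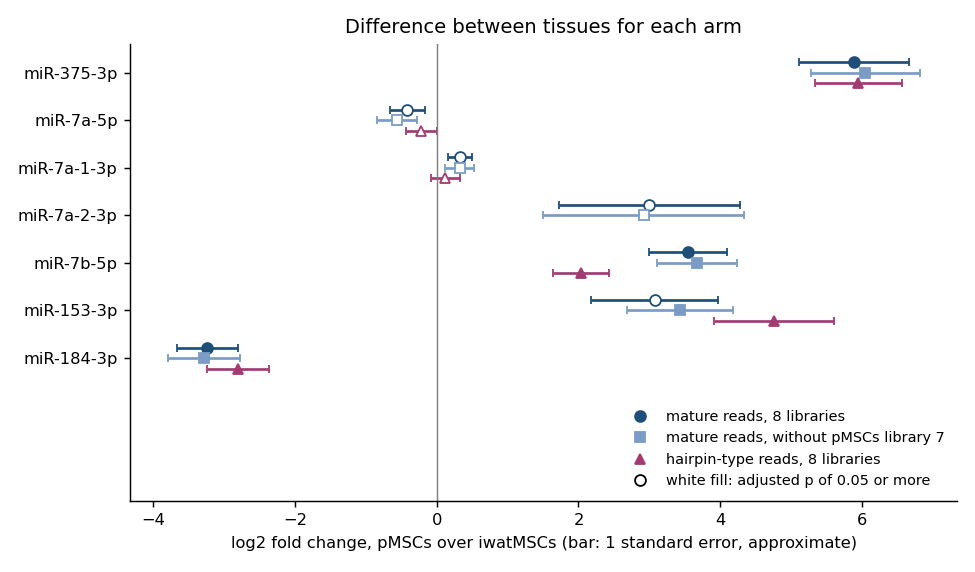
log2 fold change of each arm, pMSCs over iwatMSCs, with bars of 1 approximate standard error, for mature reads with 8 libraries (circles), mature reads without library 7 (squares) and hairpin-type reads (triangles); a white fill marks an adjusted p of 0.05 or more. miR-375-3p stayed near 6 in all 3 (5.88, 6.05 and 5.95), whereas miR-7b-5p fell from 3.54 in mature to 2.04 in hairpin-type reads and miR-153-3p was not called only with mature reads of 8 libraries.

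The miR-7 family was split. Its main guide strand, miR-7a-5p, was the most abundant member in both tissues. Its mature reads in pMSCs libraries 5 to 8 numbered 9139, 9491, 10927 and 6634 (1316, 965, 1235 and 688 CPM), and in iwatMSCs libraries 13 to 16 they numbered 15797, 12394, 9719 and 11803 (1745, 1525, 1031 and 1297 CPM). The groups overlapped, with pMSCs library 8 lowest and iwatMSCs library 13 highest. edgeR gave -0.41 on the log2 scale with a standard error of 0.24 (adjusted p = 0.362) with all libraries and -0.56 (adjusted p = 0.370) without library 7.

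Most miR-7a-5p reads stood in the hairpin type: 75287, 78987, 92755 and 55688 in pMSCs and 97877, 100248, 85923 and 86193 in iwatMSCs. They made up 89.3% ± 0.121 (SD, n = 4) of all its reads in pMSCs and 88.2% ± 1.61 (SD, n = 4) in iwatMSCs. The share over all 8 libraries was 88.7%, and 9.32% of the 665 miRNA names with at least 100 reads over both types had a higher one (median 47.5%). The hairpin-type reads of miR-7a-5p differed by -0.22 on the log2 scale (edgeR adjusted p = 0.638), so that neither type was called.

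miR-7a-1-3p, the other strand of the hairpin in Hnrnpk, was steady among the libraries. It had 346, 321, 266 and 249 CPM in pMSCs libraries 5 to 8 and 261, 267, 196 and 215 CPM in iwatMSCs libraries 13 to 16, with overlapping groups. The difference of 0.33 on the log2 scale had a standard error of 0.17 (edgeR adjusted p = 0.322) and changed little without library 7 (0.32).

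miR-7a-2-3p, from the intergenic hairpin that is the main source of miR-7 in endocrine cells of the mouse, was close to the limit of detection. It had 0, 7, 3 and 2 reads in pMSCs libraries 5 to 8 and 0, 0, 0 and 1 in iwatMSCs libraries 13 to 16. These 12 reads against 1 are a ratio of 12.1 with an exact 95% counting interval of 1.80 to 519. The fitted difference did not pass (edgeR adjusted p = 0.256, and 0.361 without library 7). Among the reads of both miR-7a 3p arms it took 0.108% ± 0.0922 (SD, n = 4) in pMSCs and 0.0128% ± 0.0255 (SD, n = 4) in iwatMSCs. The 2 groups overlapped in this share (two-sided exact permutation test, p = 0.143), and its highest value was 0.221% in pMSCs library 6 (7 of 3163 reads, exact 95% Clopper-Pearson interval 0.0890% to 0.455%). Nearly all 3p reads of miR-7a thus carried the sequence of the Hnrnpk hairpin in both tissues.

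miR-7b-5p, with the same seed as miR-7a-5p, was rare and was called higher in pMSCs. pMSCs libraries 5 to 8 held 26, 89, 26 and 46 mature reads (3.74, 9.05, 2.94 and 4.77 CPM), and iwatMSCs libraries 13 to 16 held 2, 7, 3 and 3 (0.221, 0.861, 0.318 and 0.330 CPM). All pMSCs libraries exceeded all iwatMSCs libraries, with library 6 highest. The level in iwatMSCs rests on very few reads. What part of them were miR-7a-5p reads with an error at base 10 was not tested, so the fold difference is uncertain. edgeR put the difference at 3.54 on the log2 scale with a standard error of 0.55 (adjusted p = 0.00409), or 11.7-fold, and at 3.67 (adjusted p = 0.00618) without library 7.

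Hairpin-type reads of miR-7b-5p numbered 50, 165, 86 and 64 in pMSCs and 12, 21, 20 and 34 in iwatMSCs, again without overlap in reads. They differed by 2.04 on the log2 scale with a standard error of 0.39 (edgeR adjusted p = 0.00655), or 4.11-fold. The fold difference of miR-7b-5p therefore depended on the type of read more than that of miR-375-3p. Hairpin-type reads made up 58.2% to 76.8% of its reads in pMSCs and 75% to 91.9% in iwatMSCs.

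Both names share a seed, and their sum was dominated by the reads of miR-7a-5p. miR-7b-5p took 0.284%, 0.929%, 0.237% and 0.689% of the mature reads of both in pMSCs libraries 5 to 8, and 0.0127%, 0.0564%, 0.0309% and 0.0254% in iwatMSCs libraries 13 to 16. The exact 95% interval was 0.747% to 1.14% for library 6, the highest, and 0.00153% to 0.0457% for library 13, the lowest. Means were 0.535% ± 0.332 (SD, n = 4) and 0.0313% ± 0.0184 (SD, n = 4). The 2 groups did not overlap, with a two-sided exact permutation p = 0.0286, the smallest that 4 against 4 libraries allow, which became 0.0571 after Benjamini-Hochberg adjustment over the 2 shares tested. In hairpin-type reads the share was 0.121% ± 0.0619 (SD, n = 4) and 0.0240% ± 0.0113 (SD, n = 4). Summed under 1 name, miR-7a-5p and miR-7b-5p differed by -0.40 on the log2 scale (edgeR adjusted p = 0.375).

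The proportion of the miR-7a arms is given as a description, since it was chosen after its values were seen. For each mature read of miR-7a-1-3p there were 3.80, 3.01, 4.64 and 2.76 reads of miR-7a-5p in pMSCs libraries 5 to 8 and 6.68, 5.70, 5.25 and 6.03 in iwatMSCs libraries 13 to 16. The groups did not overlap, and means were 3.55 ± 0.849 (SD, n = 4) and 5.92 ± 0.602 (SD, n = 4). With hairpin-type reads added, the ratios were 23.2 to 38.4 in pMSCs and 41.9 to 45.0 in iwatMSCs. No test is given for this ratio.

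**Figure D3:**
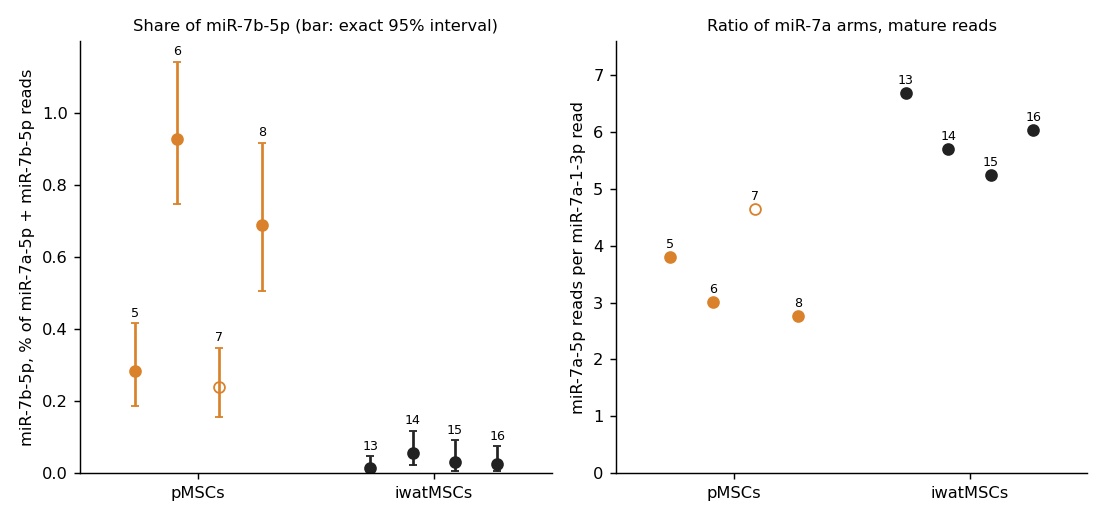
Left, share of miR-7b-5p among the mature reads of miR-7a-5p and miR-7b-5p in percent, with exact 95% intervals that cover counting error only. Right, miR-7a-5p reads per miR-7a-1-3p read. Numbers are libraries and pMSCs library 7 is open; the share is higher and the ratio lower in all 4 pMSCs libraries (0.237% to 0.929% against 0.0127% to 0.0564%, and 2.76 to 4.64 against 5.25 to 6.68).

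miR-153-3p, the granule-gene miRNA, had few reads. Whether it was called depended on library 7, on the tool, on the names tested and on the type of read. The pMSCs libraries 5, 6, 7 and 8 held 22, 22, 3 and 38 mature reads (3.17, 2.24, 0.339 and 3.94 CPM), and the iwatMSCs libraries held 3, 0, 5 and 2 (0.331, 0, 0.531 and 0.220 CPM). Library 7 fell among the iwatMSCs libraries, and the other pMSCs libraries lay above them all. With 8 libraries the edgeR difference was 3.08 on the log2 scale with a standard error of 0.89 (adjusted p = 0.0873) and was not called. Without library 7 it was 3.43 (standard error 0.74, adjusted p = 0.0358).

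In its hairpin-type reads, library 7 did not stand apart: the pMSCs libraries held 5, 8, 7 and 20 reads of miR-153-3p and the iwatMSCs libraries 1, 0, 0 and 0. These reads differed by 4.76 on the log2 scale with a standard error of 0.85 (edgeR adjusted p = 0.00373 with all 8 libraries). DESeq2 also called the mature reads of miR-153-3p with 8 libraries (adjusted p = 0.0113), where 5.96% of tested miRNAs were called higher, 4.67% lower and 10.6% either way. Over the alternatives for this miRNA the adjusted p ran from 0.00373 to 0.625. Values of 0.596 to 0.625 came from limma, another tool, on the deposited TPM of all 8 libraries. In that TPM, library 7 holds 1 for nearly all names. When 1 library was left out, the edgeR adjusted p ran from 0.0358 to 0.218.

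miR-184-3p went the other way. It had 30, 59, 51 and 61 reads in pMSCs libraries 5 to 8 (4.32, 6.00, 5.76 and 6.32 CPM) and 163, 410, 624 and 705 reads in iwatMSCs libraries 13 to 16 (18.0, 50.4, 66.2 and 77.5 CPM). The pMSCs libraries were close together, within 1.46-fold, whereas the iwatMSCs libraries spread over 4.30-fold with library 13 lowest. Means were 5.60 ± 0.885 CPM (SD, n = 4) and 53.0 ± 25.9 CPM (SD, n = 4). This was -3.24 on the log2 scale with a standard error of 0.43, that is 9.43-fold lower in pMSCs, at an edgeR adjusted p of 0.00156. The value was -3.28 (adjusted p = 0.00651) without library 7 and -3.53 without iwatMSCs library 13. Hairpin-type reads of miR-184-3p, 51, 59, 41 and 42 in pMSCs and 155 to 544 in iwatMSCs, gave -2.80 with a standard error of 0.43 (edgeR adjusted p = 0.00143).

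Several epithelial and acinar miRNAs moved with miR-375-3p. Acinar cells make the digestive enzymes of the pancreas, and of 9 listed acinar arms (of miR-216a, miR-216b, miR-216c, miR-217 and miR-802) 4 were higher in pMSCs (edgeR, 5 with DESeq2) and none lower by either tool, also at an unadjusted p under 0.05. Their summed level was 61.9, 34.1, 12.2 and 20.5 CPM in pMSCs libraries 5 to 8 and 0.738 to 1.59 CPM in iwatMSCs. 1 of the 9, miR-802-3p, had no read in iwatMSCs. Not all acinar arms leaned the same way. miR-216b-3p had 3 reads in pMSCs and 6 in iwatMSCs, and miR-216c-3p had 3 and 10. They differed by -0.89 and -1.53 on the log2 scale (edgeR adjusted p = 0.755 and 0.520). Of 10 arms of the miR-200 family, which maintains the epithelial state, 9 were tested, 7 were higher by both tools and none lower, also unadjusted. Beside these counts, edgeR called 3.46% of all tested miRNAs higher and 2.98% lower, and DESeq2 5.96% and 4.67%. Their sum was 595, 450, 303 and 243 CPM in pMSCs libraries 5 to 8 and 13.1 to 21.3 CPM in iwatMSCs, and miR-429-5p had no read in any library.

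The 2 pMSCs libraries with the highest miR-375-3p, 5 and 6, were also those with the highest acinar and miR-200 sums. This order was not particular to these lists. Libraries 5 and 6 were also highest for the miR-183 cluster (317, 259, 229 and 173 CPM in libraries 5 to 8). The same held for the mesenchymal list and for the haematopoietic list described below (90.6, 89.5, 86.1 and 70.9 CPM). It did not hold for the neural, endothelial and other islet lists, where library 7 was above library 6. In iwatMSCs the order was another: library 14, with the most miR-375-3p, had the lowest acinar sum (0.738 CPM) and a miR-200 sum of 21.03 CPM. What part cells of other types had in the level of miR-375-3p was not tested. Of the 6 arms of the epithelial miR-183 cluster (miR-183, miR-96 and miR-182), 5 were tested and none passed in either direction by edgeR or DESeq2 (at an unadjusted p under 0.05, 0 with edgeR and 1 higher with DESeq2), with sums of 173 to 317 CPM in pMSCs and 146 to 226 CPM in iwatMSCs.

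**Figure D4:**
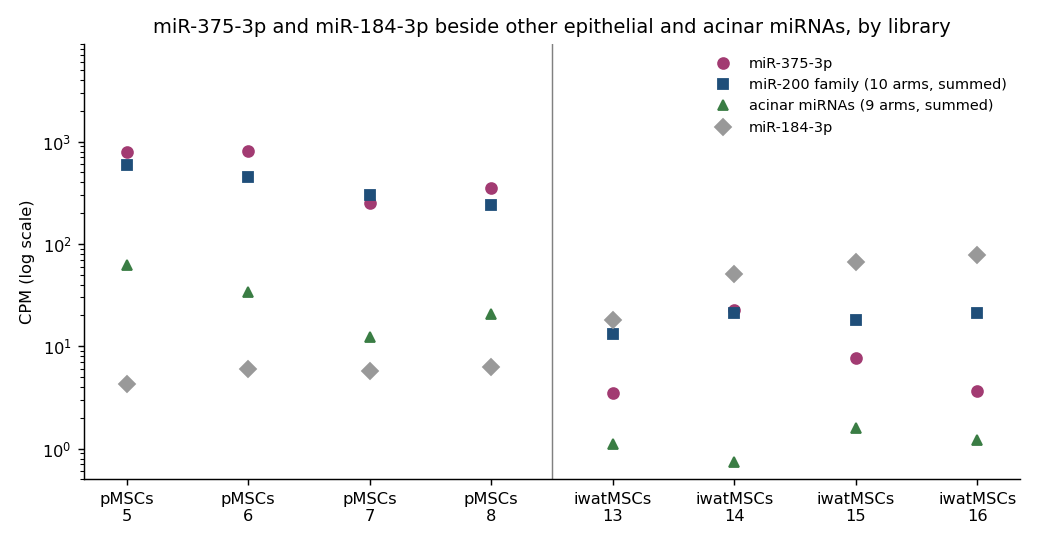
Level of miR-375-3p and miR-184-3p, and summed levels of the miR-200 family and of the acinar miRNAs, in CPM on a log scale by library. miR-375-3p, the miR-200 sum and the acinar sum are higher in all 4 pMSCs libraries, with libraries 5 and 6 above 7 and 8, and miR-184-3p is higher in all 4 iwatMSCs libraries.

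miRNAs of neurons, a cell type that shares miR-7, miR-153 and miR-184 with islets, showed another picture. Of 9 listed neural arms (miR-9, miR-124, miR-128, miR-129, miR-137, miR-138, miR-218 and miR-219a) 8 were tested, none was higher, also unadjusted or with DESeq2, and 4 were lower in pMSCs by both tools (3 without library 7 in edgeR). Their sum lay between 4205 and 4646 CPM in pMSCs and between 4465 and 6175 CPM in iwatMSCs, most of it miR-218-5p. miR-124-3p, the defining miRNA of neurons, had 3 reads in all pMSCs libraries together and 48 in iwatMSCs. Of 8 other miRNA arms studied in islets (miR-187, miR-132, miR-212, miR-127, miR-204, miR-211 and miR-338), 1 was higher (0 without library 7) and 2 lower, with a median log2 fold change of -0.16. The shares over all tested miRNAs were 3.46% higher and 2.98% lower with edgeR (2.65% and 2.73% without library 7), and 5.96% and 4.67% with DESeq2. Of the cells that the gate removed, neither of the 2 endothelial arms (miR-126a) was called by edgeR or DESeq2, also unadjusted, and their sum was 218.4 to 417 CPM in pMSCs and 196 to 353 CPM in iwatMSCs. The sum of 8 haematopoietic arms was 70.9 to 90.6 CPM in pMSCs and 91.0 to 157 CPM in iwatMSCs. Most of it was miR-451a, miR-486a-5p and miR-150-5p (1698, 709 and 525 reads in pMSCs, 2008, 1154 and 1020 in iwatMSCs). In contrast, miR-142a-3p had 0 reads in pMSCs and 10 in iwatMSCs, and miR-223-3p had 13 and 69. Both sums were above 0 in every library, but not every haematopoietic arm was detected. None of the 6 tested haematopoietic arms was called by edgeR (3 were lower at an unadjusted p under 0.05), and DESeq2 called 2 lower in pMSCs.

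The profiles most like those of the called members were sought among 372 known miRNAs (371 for miR-7b-5p) of at least 10 CPM on average in 1 of the tissues, outside the member's own family. Likeness was the root mean square difference of log2(CPM + 1) over the 8 libraries, after each miRNA was centred on its own mean, and is a description. The members were called for a tissue difference, so miRNAs without one lie far from them by construction. The median distance therefore does not show that a likeness is particular to the named miRNAs. All nearest profiles were themselves called, in the direction of the member. Nearest to miR-375-3p were miR-200a-3p (0.77), miR-200c-3p (1.17) and miR-429-3p (1.21), against a median of 3.09 over all compared, so all 3 belong to the miR-200 family. For miR-184-3p they were miR-211-5p (0.50), miR-6540-5p (0.51) and miR-1298-5p (0.57), against a median of 1.59. miR-211-5p and miR-6540-5p averaged 19.4 and 20.7 CPM in iwatMSCs and 1.04 and 0.768 CPM in pMSCs. For miR-7b-5p, whose range was small at these low levels, they were miR-10a-5p (0.43), miR-135a-5p (0.47) and miR-23b-3p (0.48), against a median of 1.13.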

How the data were processed

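RNA of sorted and expanded MSCs (4 pMSCs and 4 iwatMSCs libraries) was sequenced by BGI on BGISEQ after adapter ligation and addition of unique molecular identifiers, and BGI identified and classified the small RNAs. Bowtie2 is named in the submitters' processing notes. Its version, the genome build and the miRBase release are not given in the sources used here. The deposited read counts per small RNA and library were used without change, and all 16 value columns were mapped to libraries by their numbers. The score that the authors deposited as TPM is a whole number (0.001 for 0), is not scaled to a common total and was used only in alternatives. The study left out 1 outlier sample. Group means of the deposited TPM matched its target tables for all 58 miRNAs listed there only without pMSCs library 7 (relative tolerance 0.001), and for at most 3 otherwise.

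edgeR 4.0.16 in R 4.3.3 was run on mature names whose mean reached 1 read in either tissue (TMM, quasi-likelihood F test, two-sided, Benjamini-Hochberg over all names tested, threshold 0.05). CPM are reads per 1000000 after TMM scaling over 8 libraries. Approximate standard errors were derived from each log2 difference and its F value. Shares were compared by exact permutation tests in scipy 1.17.1 (Python 3.11.15, figures with matplotlib 3.10.9). The third planned share, of miR-375-5p, could not be computed. The fit was tested on simulated data with known differences. It called 6 of 47 tested miRNAs at 2-fold, 23 of 49 at 4-fold, 34 of 46 at 16-fold and 36 of 45 at 64-fold. Of those simulated without a difference it called 5 of 987. A miRNA that was not called may therefore still differ.

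Members and the 8 marker lists were chosen with earlier results of these data known. The named miRNAs are the 9 members, and for each called member the 3 nearest profiles. miR-802-3p, miR-429-5p, miR-218-5p, miR-124-3p, miR-143-3p and miR-199a-3p were named after their values were seen. The same holds for miR-199a-5p, miR-199b-5p, miR-451a, miR-486a-5p, miR-150-5p, miR-142a-3p, miR-223-3p, miR-216b-3p and miR-216c-3p. Alternatives were each library left out, DESeq2 1.42.0 and its size factors, scaling by all small RNA reads, other filters, known miRNAs only, the miR-7 guides summed, and limma 3.58.1 on log2 of TPM plus 1, 0.5 or 5. Hairpin-type reads, and limma without library 7, were added after seeing the data. Small RNA types other than mature and hairpin were used only for library totals.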

Additional observations from a re-analysis of the deposited data

Results flagged for a closer look

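Within groups of 4 libraries, 1 library was tested for standing far from the other 3 (Dixon's ratio of gap to range above its 95% critical value, which chance gives for about 1 in 20 groups), over 18 groups of values. miR-7b-5p in iwatMSCs library 14 stood at 0.861 CPM against 0.221 to 0.330 CPM in the other iwatMSCs libraries (7 reads against 2 or 3), and without it the log2 fold change of miR-7b-5p was 4.07. miR-7a-2-3p in iwatMSCs library 16 stood at 0.110 CPM against 0 in the others, and its share of miR-7a 3p reads was 0.0511% there. Both values come from 1 read.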

How the results depend on the processing

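miR-184-3p, miR-375-3p and miR-7b-5p stayed called when any 1 library was left out (log2 fold changes -3.53 to -2.99, 5.55 to 6.79 and 3.11 to 4.07), and with other scaling, filters, known miRNAs only, DESeq2, hairpin-type reads and, without library 7, limma. They were lost with limma on the deposited TPM of all 8 libraries, in which library 7 holds 1 for nearly all names: with pseudocounts of 1, 0.5 and 5, miR-375-3p had 3.53, 3.44 and 3.82 (adjusted p 0.596 to 0.625), miR-7b-5p 2.30, 2.37 and 1.84 (0.596 to 0.625) and miR-184-3p -4.24, -4.35 and -3.77 (0.303 to 0.399). miR-7a-1-3p, not called in any fit, changed sign there, to -2.24, -2.34 and -1.85. miR-153-3p was called without library 7 (range when 1 library was left out 2.70 to 3.60), with DESeq2 (3.14), known miRNAs only (3.06), hairpin-type reads (4.76), both types summed (3.44) and, without library 7, limma with pseudocounts of 1 (3.24) and 5 (2.12); the cause was not tested.

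miRNAs called higher and lower numbered 43 and 37 with edgeR, 28 to 36 and 28 to 37 when 1 library was left out, and 74 and 58 with DESeq2. limma on TPM of all 8 libraries gave 0 and 4, 0 and 1, and 0 and 5 for the 3 pseudocounts (15, 18 and 15 higher at an unadjusted p under 0.05), and without library 7 it gave 28 and 27, 26 and 33, and 32 and 26. Scaling by all small RNA reads moved the median log2 fold change of all miRNAs from -0.07 to -0.15 and changed no call of a member. The difference in the miR-7b-5p share was 0.372 to 0.602 percentage points when 1 library was left out, where 3 against 4 libraries cannot reach an exact p under 0.0571, and 13.0 with TPM of all 8 libraries. No paired analysis was possible because the library numbers of the 2 tissues differ and no label links a library to its animals. At these depths miR-7a-2-3p, with 13 reads in all, allows no firm statement.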

Other observations

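The deposited TPM was never above the read count of the same mature name and library. Its sum over mature names was 37.9% to 45.8% of the mature reads in 7 libraries and 0.0126% in pMSCs library 7, where its largest value was 16, against 149346 or more elsewhere. For miR-375-3p, library 7 has 2247 reads and a TPM of 1, whereas library 8 has 3380 reads and a TPM of 3299.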
